A study of Mus musculus with 24 samples.

Results

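The comparison described here set 6 h against 2 h of chase in mouse 3T9 fibroblasts, an established cell line, with 4 h as the midpoint. All cells of these groups had received 300 µM 4-thiouridine (4SU) for 3 h and then 1 mM uridine for 2, 4 or 6 h, and small RNA libraries were made from the RNA that carried the label. The members are the 9 libraries of these 3 times, out of 24 in the series, chosen by their labels and paired by experiment (experiments 1, 2 and 3, with 1 library per time in each), which the series design calls biological replicates. The other libraries used as a reference were the 0 h and 12 h chase libraries, unpurified total RNA from cells without label and from cells given the 4SU pulse (1 library each), and a single negative extraction, in which cells without label went through the same capture. Values are CPM, counts scaled to a common total of miRNA counts, and each miRNA's counts were summed over its isoforms. No spike-in enters, so a rise or fall is a change in the share of the captured miRNA pool and not a half-life. Each library is bulk RNA, in which less of a miRNA per cell and fewer cells holding it cannot be told apart.

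4SU stands in for uridine in newly made RNA, and its sulfur lets that RNA be tagged with biotin and pulled out on beads. The chase with unlabelled uridine is meant to keep label out of RNA made after the pulse. Whether further labelled miRNAs still joined the captured pool during the chase was not tested. A miRNA hairpin is cut by Drosha and Dicer into a duplex of a 5p and a 3p strand. Argonaute usually keeps 1 of them, the guide, and the other, the passenger, is discarded and degraded. Bases 2 to 8 of the guide, the seed, pair with target mRNAs. Non-templated bases added to the 3′ end by terminal nucleotidyl transferases are known for their links to miRNA stability.

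Of 414 miRNAs tested, 3 changed between 2 h and 6 h (0.725%): miR-92a-1-5p and miR-29b-1-5p fell (0.483%) and miR-301a-3p rose (0.242%). Here "called" means an adjusted p under 0.05 in edgeR's quasi-likelihood test with the experiment as a block. The mature sequences of these miRNAs and of the opposite arms of their hairpins are shown first, since each call concerned 1 arm of a hairpin. Sequences are RefSeq entries for GRCm38.p6, 5′ to 3′, with the seed in capitals.
miR-92a-1-5p: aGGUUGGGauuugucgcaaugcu
miR-92a-3p: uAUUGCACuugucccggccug
miR-29b-1-5p: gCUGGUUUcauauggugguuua
miR-29b-3p: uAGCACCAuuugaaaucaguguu
miR-301a-5p: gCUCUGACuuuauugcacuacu
miR-301a-3p: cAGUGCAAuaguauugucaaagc

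The hairpins show where each called arm, in capitals, lies in its precursor.
Mir92-1: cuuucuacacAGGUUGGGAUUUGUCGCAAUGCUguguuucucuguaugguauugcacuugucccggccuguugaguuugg
Mir29b-1: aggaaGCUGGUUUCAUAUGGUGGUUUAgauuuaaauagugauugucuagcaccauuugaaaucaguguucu
Mir301: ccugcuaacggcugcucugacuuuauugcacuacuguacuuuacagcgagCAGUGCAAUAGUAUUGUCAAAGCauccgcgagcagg
In GRCm38, Mir92-1 lies at chr14:115044427-115044506 on the plus strand, in an exon of Mir17hg, the host transcript of the miR-17~92 cluster, per GENCODE vM21. Mir29b-1 lies at chr6:31063023-31063093 on the minus strand and overlaps an exon of the annotated gene Gm27019. Mir301 lies at chr11:87113004-87113089 on the plus strand, within Ska2 and outside its annotated exons.

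miR-92a-1-5p, the strand opposite the abundant guide miR-92a-3p, fell most clearly. Its level at 2 h was 290.5 CPM in experiment 1, 567 CPM in experiment 2 and 314 CPM in experiment 3. At 4 h it was 139, 296 and 133 CPM in the same order. At 6 h it was 106, 193 and 131 CPM. Every 6 h library lay below every 2 h library, and within each experiment the level fell from 2 h to 4 h and again to 6 h. The mean dropped from 390.5 ± 153 to 143 ± 44.8 CPM (SD, n = 3). The log2 fold change was -1.38 (SE 0.157, edgeR adjusted p = 1.62e-06), or 0.385 times the 2 h level with a 95% interval of 0.307 to 0.481. The step from 2 h to 4 h was itself called, with a log2 change of -1.04 (SE 0.155, edgeR adjusted p = 0.000219), the only call in that comparison (0.242%). The step from 4 h to 6 h had a log2 change of -0.34 (edgeR adjusted p = 0.993), in a comparison with 0 calls (0%) and 13 unadjusted p-values under 0.05.

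The negative extraction held 19 counts of miR-92a-1-5p, or 66.9 CPM with an exact Poisson interval of 40.3 to 105 CPM, which covers counting error only. The lowest 6 h library, at 106 CPM, stood just above this interval, and the part of unlabelled RNA in the levels was not tested. Total RNA held more of it, 695 CPM in unlabelled and 1068 CPM in pulsed cells. Nearly all reads were the canonical sequence: 99.0%, 98.2% and 96.8% at 2 h against 95.2%, 91.3% and 96.2% at 6 h in experiments 1 to 3. The rest were almost all trimmed forms, whose share was 0.917%, 1.81% and 3.19% at 2 h and 4.36%, 8.73% and 3.81% at 6 h. The trimmed share was thus higher at 6 h within each experiment, though the values of the 2 times were not tested and rest on 21 to 54 trimmed counts per library.

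The guide of the same duplex, miR-92a-3p, stood at 78774 CPM, 123635 CPM and 94736 CPM at 2 h. At 6 h it stood at 82920 CPM, 118289 CPM and 116374 CPM. The groups overlapped, and its log2 change of 0.14 (SE 0.120) did not pass the test (edgeR adjusted p = 0.781, 95% interval -0.11 to 0.38). miR-92a-3p also derives from Mir92-2 on chromosome X, so its reads cannot be assigned to Mir92-1 alone.

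miR-29b-1-5p is the strand opposite miR-29b-3p, a guide of the miR-29 family known for targeting collagens and other matrix genes. It was measured at 35.9 CPM, 57.4 CPM and 106 CPM at 2 h in experiments 1 to 3. At 4 h the levels were 29.1, 32.5 and 50.9 CPM. At 6 h they were 24.2, 8.43 and 47.5 CPM, the lowest resting on 11 counts. Levels fell from 2 h to 4 h to 6 h within each experiment, but experiments differed so much that the groups overlapped. The log2 fold change was -1.20 (SE 0.276, edgeR adjusted p = 0.0274), or 0.435 times with a 95% interval of 0.293 to 0.645. Its mean of 46.6 CPM was under the minimum of 50 CPM for naming genes, so it was chosen after its values were seen. The negative extraction had 0 counts of it, where 3 counts would be 10.6 CPM and the exact Poisson upper limit is 13.0 CPM. It was lower in total RNA, at 14.7 and 11.7 CPM, than in all 3 labelled libraries of 2 h. At 6 h, experiments 1 and 3 also lay above both total RNA values, and experiment 2, at 8.43 CPM, lay below both.

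Most reads of miR-29b-1-5p did not end at the annotated 3′ end. Templated 3′ extensions made up 88.7%, 93.6% and 86.2% of its counts at 2 h and 87.0%, 72.7% and 82.7% at 6 h. The canonical form took at most 5.65% in any of the 9 libraries. With canonical reads alone it was not tested, having too few counts. The opposite arm, miR-29b-3p, was measured at 28.9, 12.3 and 19.9 CPM at 2 h and at 34.5, 21.5 and 21.6 CPM at 6 h. Its log2 change was 0.35 (SE 0.326, edgeR adjusted p = 0.781), with a 95% interval of -0.32 to 1.02. RefSeq places miR-29b-3p in Mir29b-2 on chromosome 1 as well.

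miR-301a-3p, a guide of the miR-130/301 family, was the only miRNA called as rising. Its level at 2 h was 90.4 CPM, 49.6 CPM and 25.1 CPM in experiments 1 to 3. At 4 h it was 102, 65.0 and 39.8 CPM. At 6 h it was 183, 132 and 50.9 CPM. The level was higher at each later time within every experiment, and the groups overlapped because experiment 3 stood low throughout. The ratio of 6 h to 2 h was 2.03 in experiment 1, 2.66 in experiment 2 and 2.03 in experiment 3. The log2 fold change was 1.15 (SE 0.246, edgeR adjusted p = 0.0168), or 2.22 times with a 95% interval of 1.57 to 3.16. The negative extraction held 40 counts, or 141 CPM (exact Poisson interval 101 to 192 CPM). This was above the 3 libraries of 2 h, the 3 of 4 h and those of 6 h in experiments 2 and 3, so only the 6 h library of experiment 1 stood higher, within that interval. Total RNA held 1676 CPM in unlabelled and 3036 CPM in pulsed cells. The part of unlabelled RNA in this rise was not tested.

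The other miRNAs with the seed of miR-301a-3p allow a comparison within 1 seed family, and their sequences differ after the shared start.
miR-301a-3p: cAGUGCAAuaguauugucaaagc
miR-130a-3p: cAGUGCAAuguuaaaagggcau
miR-130b-3p: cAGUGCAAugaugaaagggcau
miR-130a-3p had a log2 change of 0.20 (SE 0.118, edgeR adjusted p = 0.666), and its 95% interval of -0.05 to 0.44 ends below the estimate for miR-301a-3p. miR-130b-3p had a log2 change of 0.11 (SE 0.118, edgeR adjusted p = 0.794, 95% interval -0.13 to 0.35). The paralog miR-301b-3p had a log2 change of 0.81 (SE 0.311, edgeR adjusted p = 0.487). Its levels were 12.0, 15.6 and 9.5 CPM at 2 h and 17.5, 42.2 and 12.1 CPM at 6 h, against 31.7 CPM from 9 counts in the negative extraction. The differences between these family members were not tested. The opposite arm of the hairpin, miR-301a-5p, had 27.1, 19.7 and 14.7 CPM at 2 h and 22.5, 12.3 and 18.6 CPM at 6 h, with a log2 change of -0.13 (SE 0.249, edgeR adjusted p = 0.896).

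**Figure D1:**
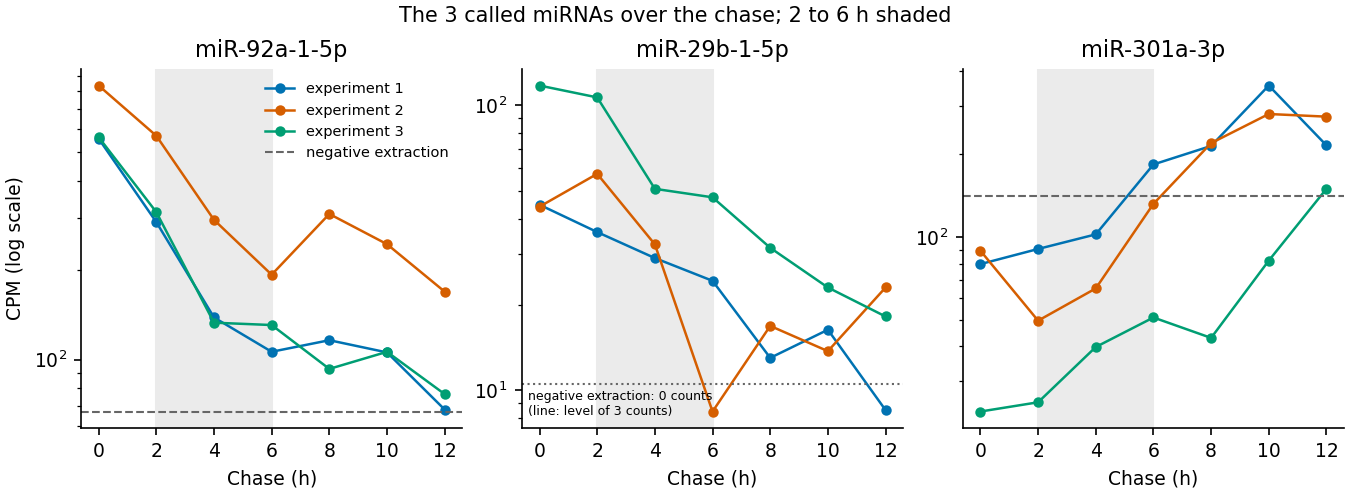
CPM (log scale) of the 3 called miRNAs against hours of chase, 1 line per experiment, with 2 to 6 h shaded; dashed lines give the level in the negative extraction, and the dotted line the level of 3 counts there for miR-29b-1-5p. From 2 to 6 h every line moves in 1 direction, down for miR-92a-1-5p and miR-29b-1-5p and up for miR-301a-3p.

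The calls rest on pairing by experiment. Without the block, the edgeR test called 0 miRNAs (5 had an unadjusted p under 0.05), and all 3 had an adjusted p of 0.996 at nearly the same fold changes. miR-92a-1-5p remained called when any 1 experiment, or any 1 of the 6 libraries, was left out. miR-301a-3p was lost without experiment 1 (edgeR adjusted p = 0.188), without experiment 2 (0.0557), and without the 2 h library of experiment 2 (0.166) or 3 (0.0776) or the 6 h library of experiment 1 (0.1). miR-29b-1-5p was lost without experiment 1 (edgeR adjusted p = 0.185), 2 (0.0778) or 3 (0.249), and without the 2 h library of experiment 2 (0.193) or 3 (0.135) or the 6 h library of experiment 2 (0.229) or 3 (0.0799).

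Over all 414 miRNAs the median log2 change was -0.02, and 90% of values lay between -0.68 and 0.62. An unadjusted p under 0.05 was found for 31 miRNAs (7.49%), 17 up and 14 down. Among these 31, the mean at 4 h lay between the 2 h and 6 h means for 26, against 171 of 414 overall (41.3%); the same 2 h and 6 h values enter both. Abundant miRNAs were measured closely. All 60 miRNAs with a mean of at least 1000 CPM had an estimate within 1.5-fold and a 95% interval within 2-fold of no change. The interval stayed within 2-fold for 109 of 112 miRNAs of 50 to 1000 CPM and for 101 of 242 below 50 CPM.

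**Figure D2:**
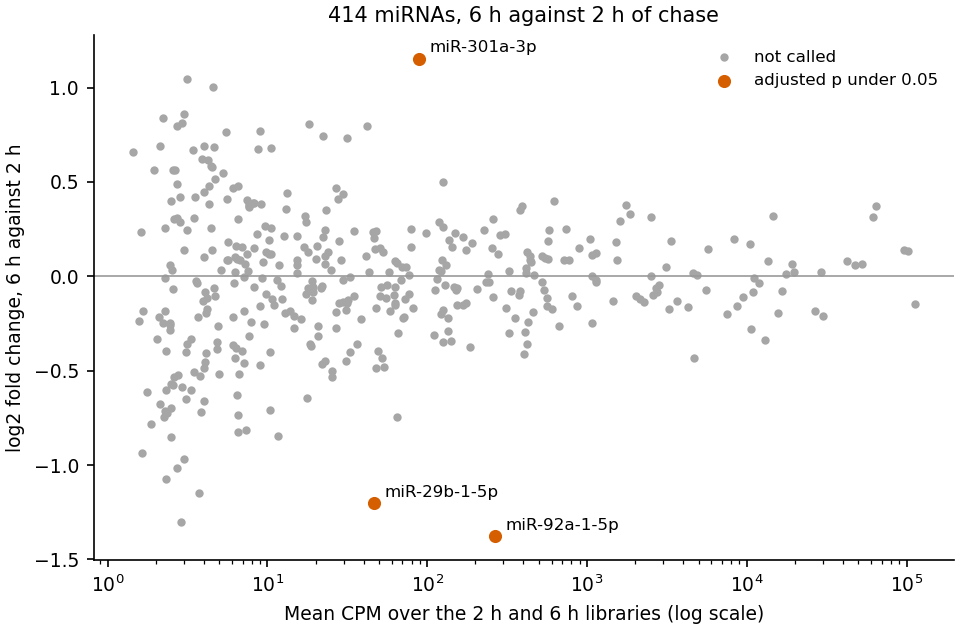
log2 fold change from 2 h to 6 h against the mean CPM over the 6 libraries (log scale), 1 point per miRNA, with the 3 called in colour. Values spread widely below 10 CPM and narrow toward the abundant miRNAs. None of the 60 miRNAs of at least 1000 CPM was called, where 0.725% of all 414 were.

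None of the 5 most abundant miRNAs was called, where 0.725% of all 414 were, so this says little about them. let-7f-5p, a guide of the let-7 family known for restraining growth genes, had 109797, 152724 and 95442 CPM at 2 h and 85216, 138348 and 92759 CPM at 6 h. It was lower at 6 h in each experiment, yet the groups overlapped and its log2 change of -0.15 (SE 0.205) did not pass (edgeR adjusted p = 0.851). miR-21a-5p, a miRNA abundant in fibroblasts, had 48403, 52890 and 70191 CPM at 2 h and 61820, 74126 and 80184 CPM at 6 h. It was higher at 6 h in each experiment, with overlapping groups and a log2 change of 0.37 (SE 0.154, edgeR adjusted p = 0.487). miR-27b-3p had a log2 change of 0.31 (edgeR adjusted p = 0.52), miR-143-3p of 0.14 (0.781) and miR-92a-3p of 0.14 (0.781).

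The miR-130/301 family of miR-301a-3p was not among the listed guide families. No member of the listed families was called, where 0.725% of all 414 miRNAs were. These families are described by the sign of their estimates and their medians. Of 414 miRNAs, 196 (47.3%) had an estimate above 0. Estimates above 0 were found for the 9 tested of 13 listed guides of miR-17~92 and its paralog clusters (median log2 0.22), known oncogenic clusters. The same held for the 7 tested of 8 listed names of the miR-15/16 family (0.32), known for targeting cell cycle genes. It also held for the 3 of the miR-29 family (0.35). Among the listed names, 11 of the 13 and 7 of the 8 had an entry in the deposited counts. The family of miR-30 had 4 of 5 above 0 (0.18), and miR-181 had 4 of 4 (0.16), which became 3 of 4 when counts were scaled by library totals alone. Abundant members had small estimates: miR-16-5p was at 0.32 (edgeR adjusted p = 0.487), miR-25-3p at 0.17 (0.781), miR-29a-3p at 0.19 (0.781) and miR-30d-5p at -0.08 (0.838). The summed share at 6 h over that at 2 h was 1.05, 0.964 and 1.22 in experiments 1 to 3 for the miR-17~92 group, 1.32, 1.25 and 1.04 for miR-15/16 and 0.953, 1.28 and 1.16 for miR-29, so the sums of the first and last did not move 1 way in every experiment.

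The let-7 guides leaned the other way, with 2 of 9 estimates above 0 and a median of -0.15. Summed, they took 23.6%, 30.5% and 20.6% of counts at 2 h, 21.1%, 26.1% and 20.4% at 4 h, and 20.1%, 28.1% and 19.2% at 6 h in experiments 1 to 3. Each experiment was lower at 6 h than at 2 h, and the groups overlapped. The negative extraction had 32.6%. let-7e-5p had the lowest estimate of the family (-0.28, edgeR adjusted p = 0.781). Estimates below 0 were also found for the guides miR-221-3p and miR-222-3p, which share a precursor transcript, at -0.10 (edgeR adjusted p = 0.819) and -0.34 (0.554). For miR-23/27/24, 3 of 5 estimates were above 0 with a median of 0.00, whose sign turned with the scaling; miR-27a-3p was at 0.38 (edgeR adjusted p = 0.487) and miR-23b-3p at -0.10 (0.793).

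In target-directed degradation, a highly complementary transcript triggers loss of the miRNA. Of 10 miRNAs listed as its reported subjects, 0 were called (against 0.725% of all 414) and 8 had estimates above 0 (median 0.17). Their summed share was nonetheless lower at 6 h in each experiment, at 1.77%, 2.07% and 1.95% against 1.96%, 2.75% and 1.99% at 2 h; the most abundant of them, miR-222-3p, was among those with an estimate below 0. miR-7a-5p, the known subject of the transcript Cyrano, was at 0.16 (edgeR adjusted p = 0.896), and miR-30c-5p was at 0.18 (0.781). The Sfmbt2-type repeats, called after a repeated intronic cluster, were listed by name (miR-297, miR-466, miR-467 and miR-669). Whether each member lies in that cluster was not checked. These repeats had 30 of 61 members tested, 10 of 30 above 0 and a median of -0.19. Of the 30, 0 were called, against the same 0.725% of all 414. miR-466b-3p, for example, was at -0.35 (edgeR adjusted p = 0.626); near-identical copies may share reads, so single members are uncertain. They were 0.0507% to 0.136% of counts at 2 h and 0.0447% to 0.116% at 6 h.

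**Figure D3:**
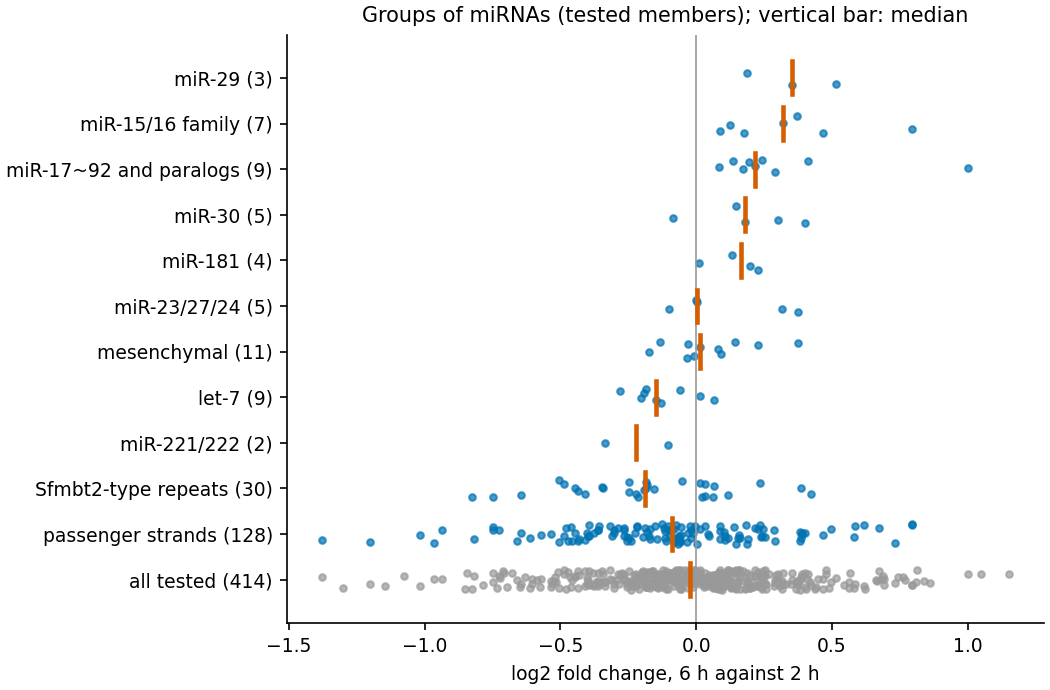
log2 fold change from 2 h to 6 h by group of miRNAs, with 1 point per tested member, the number tested in brackets and a vertical bar at the median. The miR-29, miR-15/16 and miR-17~92 guides lie wholly above 0, and most let-7 guides and repeat miRNAs below it.

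Passenger strands were then compared with guides across hairpins. In 128 hairpins both arms were tested, and the arm with the higher count in total RNA, which does not enter the comparison, was taken as the major arm. Among the 128 minor arms, 2 fell (miR-92a-1-5p and miR-29b-1-5p) and 0 rose, where 0.483% of all 414 miRNAs fell and 0.242% rose. Of these minor arms, 44 had an estimate above 0 (34.4%, against 47.3% of all miRNAs), and the median was -0.09. Among 120 distinct major arms, 1 rose (miR-301a-3p), against the same 0.242% of all miRNAs. Calls this few do not set the arms apart. Of the major arms, 71 were above 0 and the median was 0.03, which became 60 and -0.00 with library totals alone. The minor arm lost ground to the major arm in 79 hairpins and gained in 49.

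Per library, the median over hairpins of log2 minor over major arm (1 CPM added to each) was -2.93 at 2 h, -2.99 at 4 h and -3.06 at 6 h in experiment 1. In experiment 2 it was -2.81, -3.21 and -3.47. In experiment 3 it was -3.27, -3.23 and -3.47. The balance was lower at 6 h than at 2 h in each experiment, and the 2 h and 6 h values of different experiments overlapped. The mean difference was -0.33 ± 0.292 (SD, n = 3; exact permutation within experiments, two-sided, p = 0.0185, 216 arrangements, smallest possible p 0.00926). Most of it came from experiment 2, the shallowest: without experiment 2 the difference was -0.16, and an exact test on the other 2 experiments cannot go below p = 0.0556. It was also smaller, and past the threshold no longer, with 5 CPM added (-0.16, exact permutation p = 0.157) and in the 45 hairpins with both arms at 50 CPM or more (-0.12, exact permutation p = 0.454). Minor arms together took 2.87%, 3.66% and 2.55% of counts at 2 h and 2.64%, 3.07% and 2.31% at 6 h, and 3.70% in the negative extraction.

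The 3 hairpins with the largest loss of the minor against the major arm were those with a called arm. The same estimates enter the calls and this ranking, so the ranking adds no separate evidence. The log2 change of the minor minus that of the major arm was -1.56 for miR-29b, -1.51 for miR-92a and -1.28 for miR-301a. The arm that was minor in total RNA was the more abundant arm in the 2 h and 6 h libraries in 15 of the 128 hairpins, so "minor" there does not mean the rarer labelled strand. miR-29b was among them, at 46.6 against 23.1 CPM, and so were miR-106b (438 against 34.7 CPM) and miR-18a (143 against 17.4 CPM), named after their values were seen. The minor arm lost ground in 9 of these 15 hairpins and in 70 of the other 113. At the other end, miR-340-3p gained 0.98 on miR-340-5p, from a minor arm of 4.41 CPM.

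**Figure D4:**
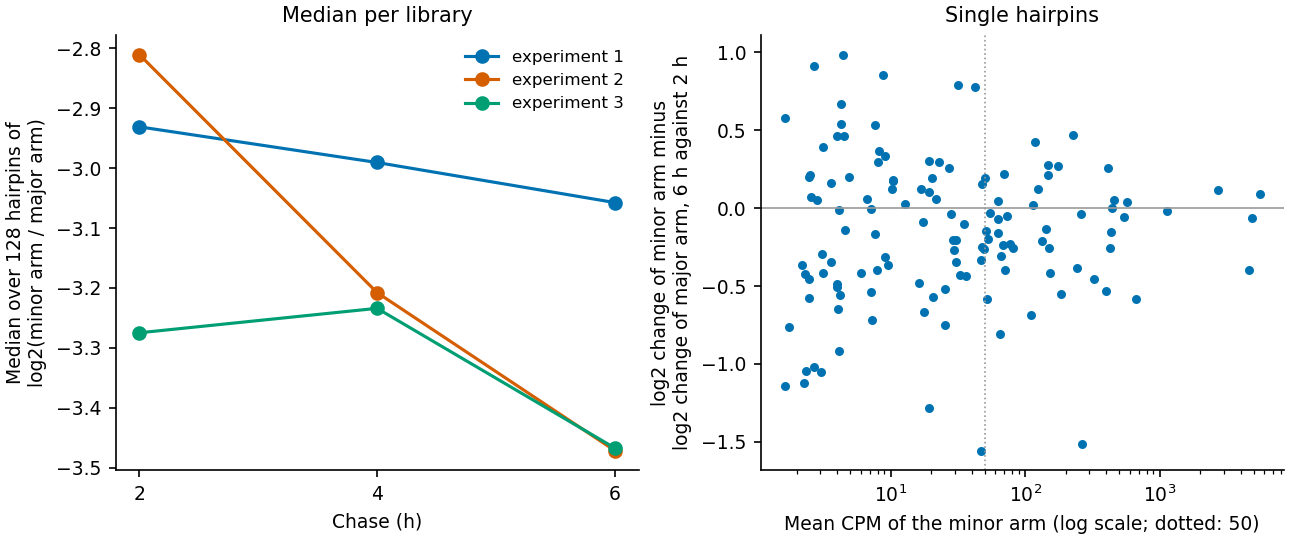
Left, the median over 128 hairpins of log2 minor over major arm at 2, 4 and 6 h, 1 line per experiment; right, the log2 change of the minor minus that of the major arm against the mean CPM of the minor arm (log scale), 1 point per hairpin. All 3 lines end lower than they start, and the spread of single hairpins is widest at low CPM.

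Ends of miRNAs were compared through isoform classes, whose shares of all miRNA counts were followed by experiment. None of the 10 classes passed after adjustment (lowest adjusted p = 0.0926, 4 with an unadjusted exact permutation p under 0.05), and 1 class alone at the smallest possible p could not have done so. The share with 3′ A addition was 4.32%, 4.71% and 4.07% at 2 h, 4.07%, 4.50% and 3.99% at 4 h, and 4.02%, 4.37% and 3.91% at 6 h. It stepped down at each time in every experiment, by 0.268 percentage points from 2 h to 6 h (exact permutation p = 0.00926, adjusted p = 0.0926). The 3′ C share was 0.589%, 0.956% and 1.14% at 2 h and 0.752%, 1.25% and 1.38% at 6 h, higher in each experiment by a mean of 0.231 points (exact permutation p = 0.0185, adjusted p = 0.0926). The canonical share was 53.2%, 50.8% and 47.0% at 2 h and 51.0%, 49.2% and 45.6% at 6 h (a difference of -1.68 points, exact permutation p = 0.0463, adjusted p = 0.116).

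These differences shrank without the 10 most abundant miRNAs, to -0.0428 points for 3′ A, 0.0141 for 3′ C and -0.0666 for the canonical form. 3′ U addition, known to mark miRNAs and their precursors for decay, was at 2.60 ± 0.218% at 2 h and 2.54 ± 0.142% at 6 h (SD, n = 3; exact permutation p = 0.37). Trimmed forms went from 19.5 ± 3.50% to 20.3 ± 2.30% (exact permutation p = 0.278) and 3′ templated extensions from 16.1 ± 1.93% to 16.5 ± 1.69% (exact permutation p = 0.37). 3′ G addition was higher at 6 h in 3 of 3 experiments, at 0.114% against 0.0935% (exact permutation p = 0.12), and so was mixed 3′ addition, at 6.24% against 5.67% (exact permutation p = 0.102). 5′ templated extension was lower in 3 of 3 experiments, at 0.351% against 0.363% (exact permutation p = 0.0463, adjusted p = 0.116), while 5′ non-templated addition was at 0.0992% against 0.0985% (exact permutation p = 0.898). In the negative extraction the canonical form made up 58.2%, 3′ A addition 4.62% and 3′ C addition 0.447%.

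**Figure D5:**
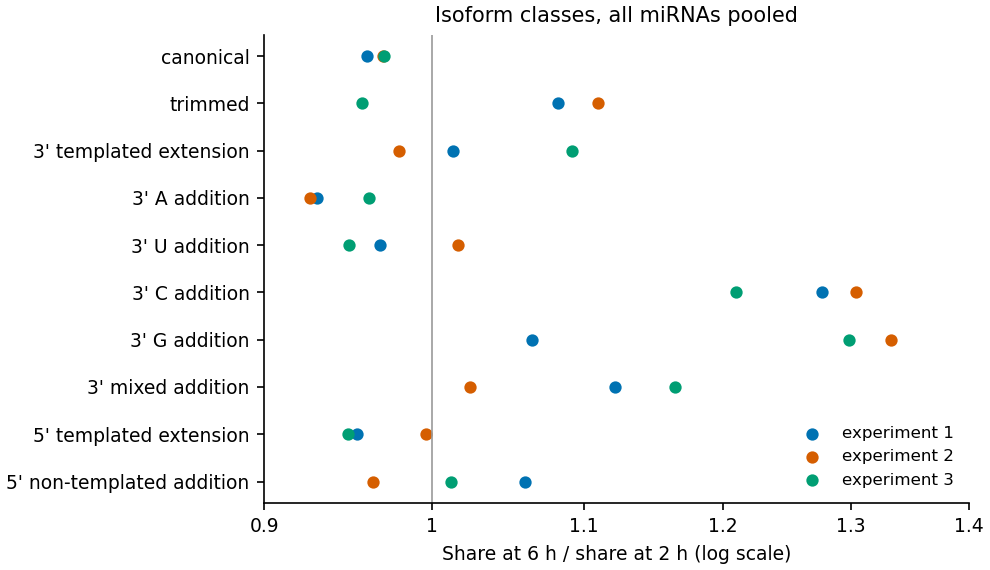
Share of all miRNA counts at 6 h divided by that at 2 h (log scale) for 10 isoform classes, 1 point per experiment. All 3 points lie below 1 for the canonical form, 3′ A addition and 5′ templated extension, and above 1 for 3′ C, G and mixed addition.

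The middle of the chase was set against its start and end as rates in log2 per hour. The 2 h libraries enter both rates of the first comparison and the 6 h libraries both of the second. From 0 h to 2 h, 14 miRNAs were called (3.38%), and from 6 h to 12 h, 9 (2.17%). No miRNA was called for a rate from 2 to 6 h that differed from that of 0 to 2 h (0%; 25 unadjusted p-values under 0.05 in the edgeR test). Against 6 to 12 h, 1 was called (0.242%), miR-92a-1-5p. Its rate was -0.37 from 0 to 2 h, -0.34 from 2 to 6 h and -0.07 from 6 to 12 h, and the latter 2 differed by -0.28 per hour (SE 0.0584, edgeR adjusted p = 0.027). Its level at 12 h was 68.0, 169 and 76.6 CPM. Those of experiments 1 and 3 were close to the 66.9 CPM of the negative extraction, a share of that library's own 283922 counts and not a set floor. The part of unlabelled RNA in the slower late rate was not tested. This call was lost without the block, with library totals alone, without the filter on low counts and whichever experiment was left out.

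miR-301a-3p had a rate of -0.05 from 0 to 2 h (edgeR adjusted p = 0.916), 0.29 from 2 to 6 h and 0.19 from 6 to 12 h (edgeR adjusted p = 0.00737). Neither difference between these rates passed (edgeR adjusted p = 0.756 and 0.994). miR-29b-1-5p had rates of 0.01, -0.30 and -0.11, and its differences did not pass either (edgeR adjusted p = 0.765 and 0.994). At the midpoint, 0 of 414 miRNAs (0%) departed from the line between 2 h and 6 h (edgeR adjusted p, 2 unadjusted under 0.05). For miR-92a-1-5p the departure was -0.35 in log2 (SE 0.137, edgeR adjusted p = 0.999).

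Depth was 1304174 to 7886484 miRNA counts in the 9 libraries, in which 3 counts correspond to 0.38 to 2.30 CPM, and 283922 in the negative extraction. Each experiment has its own code in the table's header, of a meaning the labels do not give, so experiment and code cannot be told apart. Experiment 2 was the shallowest at each time and had the widest spread of log2 ratios over the 172 miRNAs of at least 50 CPM (SD 0.365, against 0.276 and 0.251). Markers of mesenchymal cells, such as miR-143-3p and miR-21a-5p, summed to 156086 to 266477 CPM in the 2 h and 6 h libraries. Of these 13 markers, 12 had an entry in the deposited counts and 11 were tested, with 0 called, against 0.725% of all 414 miRNAs. In the same libraries epithelial markers (6 of 7 with a count) summed to 284 to 847 CPM, mostly miR-205-5p, with miR-200a-3p at 0. Blood markers (5 with a count, 7 with an entry in the deposited counts, of 10 listed names) summed to 189 to 592 CPM, mostly miR-486a-5p. Neural markers (4 with a count, 4 with an entry, of 6) summed to 400.3 to 587 CPM, mostly miR-128-3p. Muscle markers (3 with a count, 6 with an entry, of 7) summed to 6.15 to 14.1 CPM. The liver marker miR-122-5p reached at most 2.04 CPM. The embryonic stem cell markers (1 with a count, 2 with an entry, of 9) reached at most 0.192 CPM. Names without an entry were counted as 0, which does not show absence. None of these markers was called, which at that share of all miRNAs says little about them. The number of uridines in the mature sequence, where 4SU can enter, had a Spearman correlation of 0.00188 with the log2 change over the 346 miRNAs matched in RefSeq; miRNAs share libraries and sequence families, so this is a description.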

How the data were processed

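Small RNA libraries (Illumina TruSeq, 300 ng input) were sequenced from captured 4SU RNA. The authors deposited read counts per miRNA isoform, whole numbers whose totals differ between libraries. CASAVA 1.8.0 is named in the submitters' processing notes; for the aligner and miRNA annotation, the sources used here give no name. Of 7129 entries for 1221 names, 1 duplicate was removed, and 8 of 20 isoform classes, which do not repeat each other, were summed per mature miRNA. Counts were tested with edgeR 4.0.16 (R 4.3.3): TMM, filterByExpr by chase time, quasi-likelihood test over all 21 chase libraries with the experiment as a block, Benjamini-Hochberg adjustment over 414 miRNAs, threshold 0.05. Alternatives used DESeq2 1.42.0, limma 3.58.1, other scalings, filters and libraries. Single values per library were tested by exact permutation of 2, 4 and 6 h within experiments. The pairing is given by the labels' experiment numbers. Deviations from the time means correlated at 0.557 to 0.724 in 9 same-experiment pairs and at -0.61 to 0.183 in 18 others. Centring on the mean of 3 libraries pulls the values of the 18 others down, so they are no separate support for the pairing. The fit was tested on simulated data. Intervals of fold changes come from the fit and hold the spread left after the block, estimated over all 21 chase libraries. Differences in level between experiments are taken up by the block and are not in these intervals. Poisson intervals cover counting error only, since reads carry no molecular identifiers. Named are called miRNAs of at least 50 CPM with the same sign in 3 experiments, the 5 most abundant, up to 4 members of each list and all isoform classes; other names were chosen after their values were seen. Members and lists were chosen with earlier results of these data known.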

Additional observations from a re-analysis of the deposited data

Results flagged for a closer look

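miR-92a-1-5p had a rate from 2 to 6 h that differed from its rate from 6 to 12 h by -0.28 log2 per hour in edgeR's test of the difference itself (SE 0.0584, adjusted p = 0.027), and for this difference between 2 stretches of the chase it is listed here. Its level was lower at 6 h than at 2 h in 3 of 3 experiments and lower at 12 h than at 6 h in 3 of 3. The call on the difference of rates was lost without the block, with library totals alone, without the filter on low counts and whichever experiment was left out.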

How the results depend on the processing

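The count of 3 miRNAs called at 6 h against 2 h became 0 without the replicate block (edgeR; 5 unadjusted p-values under 0.05), 0 without the block in the 6 libraries alone (4 unadjusted, chosen after seeing the data), 9 in the 9 libraries of 2, 4 and 6 h (adding miR-125b-1-3p, miR-210-5p, miR-21a-5p, miR-222-3p, miR-322-3p and miR-669a-3p), and 1 to 3 with a library or experiment left out. DESeq2 called 4, adding miR-322-3p. Canonical reads alone gave 3, with miR-125b-1-3p (log2 -0.75, adjusted p = 0.0066) in place of miR-29b-1-5p, which was not tested there. miR-29b-1-5p was also lost in the 6 libraries alone (adjusted p = 0.204) and after thinning (0.221). The log2 change ranged from -1.54 to -1.30 for miR-92a-1-5p, -1.59 to -0.84 for miR-29b-1-5p and 1.01 to 1.32 for miR-301a-3p. The call on the rate of 2 to 6 h against 6 to 12 h became 0 without the block, with total counts and without the filter, and 0 with each experiment left out. For 2 to 6 h against 0 to 2 h, no filter gave 3 calls (miR-222-3p, miR-26a-2-3p and miR-30d-3p). The arm difference was -0.12 in hairpins of at least 50 CPM, -0.16 with 5 CPM added and -0.33 without the block (exact permutation p = 0.0869). The causes were not tested.

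Over 48 named miRNAs, 932 of 1004 alternative values had the same direction and call, and 50 reversed, all of miRNAs that were not called. With canonical reads these were miR-30d-5p (0.11), miR-181a-5p (-0.10), miR-181d-5p (-0.0036), miR-23b-3p (0.0231), miR-222-3p (0.0815), miR-669a-5p (-0.0053) and miR-129-5p (-0.0191). miR-181a-5p was at -0.00588 without the filter, -0.0066 without the block in 6 libraries, -0.010 in the 6, -0.0214 in the 9 and -0.0244 with total counts. miR-129-5p was at -0.0300 without the block in 6 libraries and -0.0050 with total counts. miR-23a-3p was at 0.0027 with limma-voom and 0.0334 after thinning, where miR-125b-5p was at 0.0224 and miR-467c-5p at 0.0689. With libraries left out, ranges that crossed 0 were -0.0448 to 0.114 for let-7i-5p, -0.130 to 0.0135 for miR-125b-5p, -0.35 to 0.0086 for miR-128-3p, -0.0624 to 0.0944 for miR-129-5p, -0.0098 to 0.21 for miR-143-3p, -0.0439 to 0.0121 for miR-181a-5p, -0.12 to 0.36 for miR-206-3p, -0.0485 to 0.182 for miR-22-3p, -0.108 to 0.0668 for miR-23a-3p, -0.0367 to 0.149 for miR-486a-5p, -0.0551 to 0.0949 for miR-669a-5p, -0.0326 to 0.223 for miR-92a-3p and -0.0065 to 0.13 for miR-93-5p. As medians within miRNAs, 3′ templated extension was at -0.0225 points and 3′ U addition at 0.0718; without the 10 most abundant miRNAs, 3′ templated extension was at -0.47 points and mixed 3′ addition at -0.026.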
